A study of Mus musculus with 12 samples.

Results

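Mitochondrial piRNAs (mito-piRNAs) of the germ cells of the embryonic testis were compared with those of the germ cells of the embryonic ovary. The comparison used the 6 small RNA libraries of primordial germ cells (PGCs) among the 12 libraries of the series: PGC11M, PGC12M and PGC13M from male gonads and PGC11F, PGC12F and PGC13F from female gonads, from embryonic day E11.5, E12.5 or E13.5 after coitus. All embryos were of the CD1 mouse strain, without a mutation or a treatment. The PGCs were separated from the somatic cells (SCs) of the same gonads with paramagnetic beads against CD15, and each library holds RNA pooled from the offspring of several pregnant females. The sex of the embryos was read by PCR at E11.5 and E12.5 and from gonad morphology at E13.5. Each sex and day has a single library, so the days stand in for replicates, the libraries of the same day were paired, and an SD over 3 libraries includes any change with developmental day. The counts hold mitochondrial small RNAs and no germ cell or somatic marker, so the purity of the cells was not examined here.

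PIWI-interacting RNAs (piRNAs) are small RNAs that bind PIWI proteins and, in the germ line, guide them to transposon and other transcripts. They are mostly cut from long single-stranded precursors, and many begin with uridine. The mitochondrial DNA (mtDNA) is transcribed on both strands into long precursors that carry 2 rRNAs, 22 tRNAs and 13 protein-coding mRNAs, with tRNAs placed between the other genes. The precursors are cut at both ends of the tRNAs, so the first base of a mitochondrial rRNA or mRNA is often the base that follows a tRNA. In the mouse, germ cells of the male and female gonad begin to follow separate paths around E12.5, when ovarian germ cells move towards meiosis and testicular germ cells towards mitotic arrest.

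The PGC libraries together listed 157 of the 204 distinct mito-piRNA sequences of the series and held 187614 of its 403352 reads. Levels are given as reads per 1000000 (rpm) of the small RNA reads that remained in the library after the authors had discarded sequences under 10 CPM, which numbered between 4.9e+06 and 6.9e+06 in the PGC libraries. On this scale the lowest level listed in a PGC library was between 15.8 and 17.8 rpm. Where 3 levels are given for a sex, they stand in the order of the days. A level of 0 rpm below therefore says that no sequence of that kind was listed, and a level under this limit was not detectable. Each sequence had 1 best place on the mtDNA of GRCm39 (16299 bp), and the 157 sequences began at 58 different 5′ ends.

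The sequences that carry the comparison were of 4 kinds, all read 5′ to 3′ with GRCm39 coordinates. The 5 sequences from the first base of mt-Tl1 (tRNA-LeuTAA, plus strand) were listed in testis libraries and in no ovary library. Capitals mark the 20 bases that all 5 of them share.

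mt-Tl1, 20 nt, chrM:2676-2695: ATTAGGGTGGCAGAGCCAGG

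mt-Tl1, 21 nt, chrM:2676-2696: ATTAGGGTGGCAGAGCCAGGa

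mt-Tl1, 22 nt, chrM:2676-2697: ATTAGGGTGGCAGAGCCAGGaa

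mt-Tl1, 24 nt, chrM:2676-2699: ATTAGGGTGGCAGAGCCAGGaaat

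mt-Tl1, 25 nt, chrM:2676-2700: ATTAGGGTGGCAGAGCCAGGaaatt

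The same division held for a family on the plus strand opposite mt-Ta (tRNA-Ala, minus strand, chrM:5018-5086). Its 5′ end is the single base between mt-Tw (tRNA-Trp, which ends at 5016) and mt-Ta, in capitals in its longest sequence.

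Antisense of mt-Ta, 26 nt, chrM:5017-5042: Ataaggactgtaagacttcatcctac

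The most abundant families began at the first base of 16S rRNA (mt-Rnr2) and of mt-Ts2 (tRNA-SerGCT), both on the plus strand, and consisted of sequences that differed in their 3′ ends. The 16S forms of 22 and 24 nt were listed in PGC13F alone and those of 23 and 25 nt were the main forms of this length in the other 5 PGC libraries. Capitals mark the last base.

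16S rRNA, 22 nt, chrM:1094-1115: actaatcctagccctagccctA

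16S rRNA, 23 nt, chrM:1094-1116: actaatcctagccctagccctaC

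16S rRNA, 24 nt, chrM:1094-1117: actaatcctagccctagccctacA

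16S rRNA, 25 nt, chrM:1094-1118: actaatcctagccctagccctacaC

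mt-Ts2, 20 nt, chrM:11613-11632: aagaaagattgcaagaactG

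mt-Ts2, 22 nt, chrM:11613-11634: aagaaagattgcaagaactgcT

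mt-Ts2, 26 nt, chrM:11613-11638: aagaaagattgcaagaactgctaatT

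The last set differed from the mtDNA or ended at a gene border. The 12S rRNA (mt-Rnr1) sequence below carries T2A relative to the mtDNA, counted from its 5′ end and in capitals, and the 16S sequence ends at the last base of the gene, in capitals, directly before mt-Tl1.

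12S rRNA, 16 nt, chrM:978-993: aAaagtcgtaacaagg

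16S rRNA, 31 nt, chrM:2645-2675: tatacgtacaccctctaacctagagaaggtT

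PGC13F stood apart from the other PGC libraries in its 3′ ends, which bears on every comparison of single sequences. Reads ending in A were 38.1% of its mito-piRNA reads, against 4.76% to 7.91% in the other 5 PGC libraries, and reads ending in C were 6.84% against 28.5% to 39.5%. It listed no sequence ending in CT, where the others listed 5 to 14, and 4 sequences ending in AG, which no other library of the series listed. Of its 71 sequences, 30 were found in no other of the 12 libraries, and they held 36.6% of its reads. The other PGC libraries had between 0 and 9 sequences of their own. The 22-nt form of mt-Ts2 was at 0 rpm in PGC13F and between 221 and 597 rpm elsewhere, and the 20-nt form was at 332 rpm against 28.8 to 69.7 rpm. Likewise 16S reads of 23 nt were at 17.8 rpm in PGC13F and between 245 and 706 rpm elsewhere, while the 22-nt and 24-nt forms reached 289 and 486 rpm in PGC13F alone. PGC13F also listed 6 of the 8 sequences that end at the last base of 16S rRNA. The cause of the shifted 3′ ends was not tested. Levels per gene and per 5′ end sum over the 3′ ends. They still hold only sequences that each passed the authors' minimum and matched the piRNA database. They are thus not independent of the 3′ ends, and the size of this effect in PGC13F was not tested. The plot of lengths shows where the forms of PGC13F lay.

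**Figure D1:**
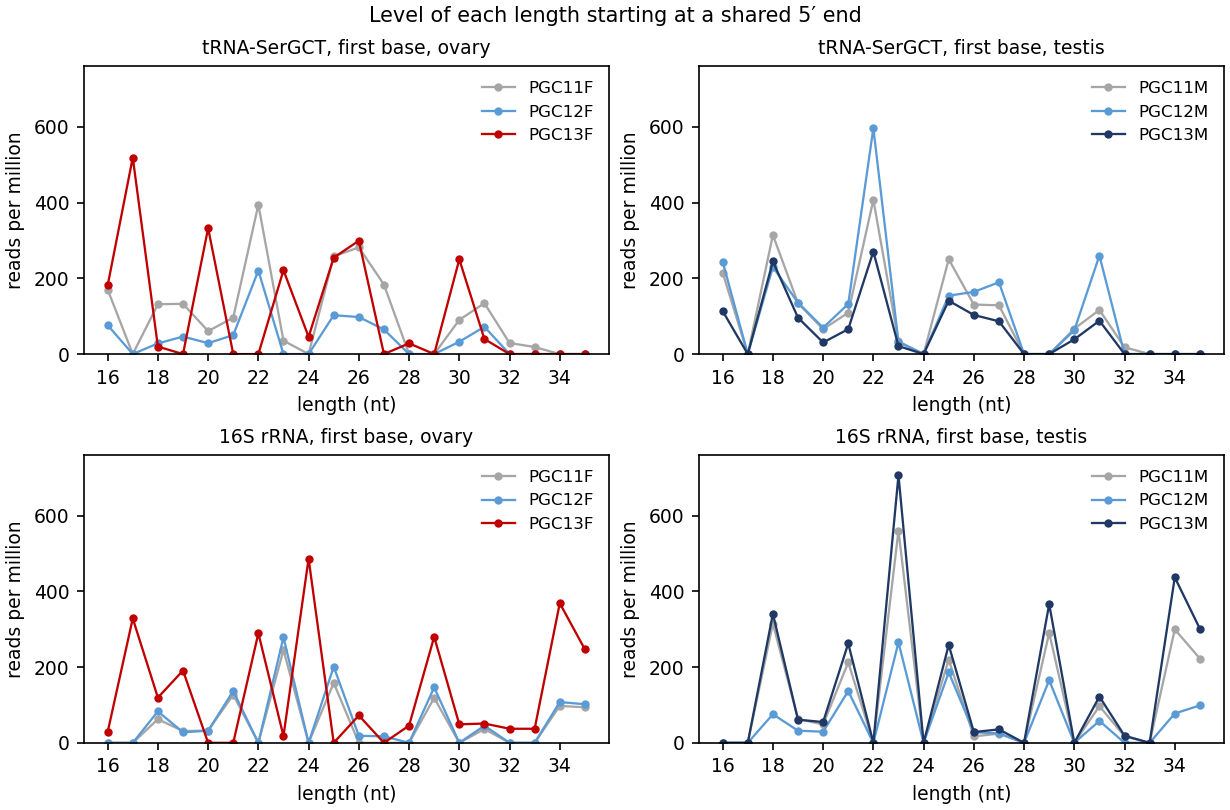
Level in reads per 1000000 (y axis) of mito-piRNAs of each length in nt (x axis) that start at the first base of tRNA-SerGCT (top) or of 16S rRNA (bottom), in the 3 ovary (left) and 3 testis (right) PGC libraries, with 1 line per library. The peaks at 22 nt for tRNA-SerGCT and at 23 nt for 16S rRNA were shared by 5 libraries, and PGC13F (red) peaked at other lengths.

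The total mito-piRNA level was higher in testis than in ovary on each of the 3 days, by a wide margin on the earlier days and hardly at all on the last. It was 4683, 2710 and 7201 rpm in PGC11F, PGC12F and PGC13F and 7875, 5057 and 7222 rpm in PGC11M, PGC12M and PGC13M. The level of testis was thus 1.68, 1.87 and 1.003 times that of ovary, and the levels of the 2 sexes overlapped. The means were 4864 ± 2251 rpm in ovary and 6718 ± 1475 rpm in testis (SD, n = 3 each), a mean log2 difference of 0.55 (2-sided exact permutation test by swaps within days, p = 0.25). That test cannot give a p under 0.25 with 3 pairs, and one over all groupings of 3 against 3 cannot give one under 0.1, so neither can pass 0.05. Relative to the nuclear piRNA reads of each library the mean log2 difference was 0.60. Relative to the mitochondrial small RNA reads it was -0.04, so the sign turned with that denominator. Mito-piRNAs are themselves most of the mitochondrial small RNA reads, so this last value compares shares of them and not levels.

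**Figure D2:**
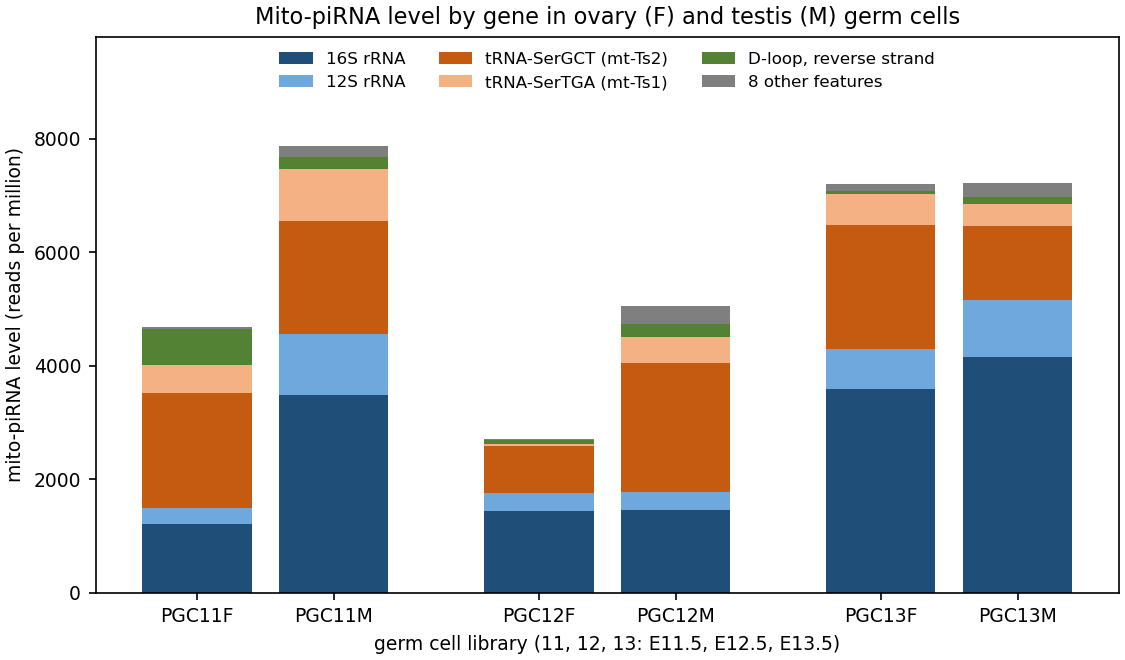
Mito-piRNA level in reads per 1000000 (y axis) in each PGC library (x axis), divided by gene. 16S rRNA and tRNA-SerGCT together made up most of each bar, and the ovary bar was lower than the testis bar of the same day except at E13.5, where they were nearly level.

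Reads were listed from 13 combinations of gene and strand, here called features. Sense reads came from both rRNA genes, from 5 of the 22 tRNA genes and from 2 of the 13 protein-coding genes, and antisense reads from 2 tRNA genes and 1 protein-coding gene, with a further family from the reverse strand of the D-loop, the control region that holds the origins of transcription. Of the 13 features, 11 were listed in at least 3 of the 6 libraries and were tested. With day as a block, edgeR's quasi-likelihood test called 0 of 11 features (0%), 0 of 29 5′ ends (0%) and 0 of 60 sequences (0%) at an adjusted p of 0.05. At an unadjusted p of 0.05 it gave 0 features, 0 5′ ends and 1 sequence, and DESeq2 called 3 features, 5 5′ ends and 0 sequences. The DESeq2 calls were mt-Tl1 and the antisense of mt-Ta, each as a feature and as a 5′ end, and, lower in testis with its own size factors, the mt-Ts2 feature and the rRNA ends at 978, 2645 and 2647. With edgeR the log2 differences of these 3 ends were -0.18, 0.65 and 0.45. In rpm the testis mean was higher at 2645 (116 against 77.0) and at 2647 (72.6 against 56.1), with testis higher on 2 and on 1 of 3 days. Levels without overlap between the sexes were found for 2 of 13 features (15.4%), 2 of 58 5′ ends (3.45%) and 8 of 157 sequences (5.1%), all of them higher in testis, and for 0 features, 0 5′ ends and 0 sequences higher in ovary. The 2 features and the 2 ends, mt-Tl1 and the antisense of mt-Ta, were at 0 in the 3 ovary libraries and passed the filter of 3 libraries through testis alone, so a call of either could only be higher in testis.

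The 2 mitochondrial rRNAs, the RNA core of the mitochondrial ribosome, gave more mito-piRNA in testis at E11.5 and nearly the same level at E12.5. The 16S feature was at 1206, 1445 and 3585 rpm in ovary and at 3492, 1455 and 4155 rpm in testis over the 3 days. The 12S feature was at 296, 321 and 707 rpm in ovary and at 1070, 327 and 1014 rpm in testis. Testis was higher on all 3 days for both genes in rpm, although DESeq2 with its own size factors gave log2 differences of -0.32 for 16S and -0.09 for 12S. The groups overlapped, and the edgeR log2 differences were 0.58 ± 0.71 (SE, adjusted p = 0.873) for 16S and 0.79 ± 1.01 (SE, adjusted p = 0.873) for 12S. Without PGC11F or PGC11M they were 0.11 for 16S and 0.27 for 12S, so most of the fitted difference rests on E11.5. As a share of the mito-piRNA reads, the rRNAs took 32.1%, 65.2% and 59.6% in ovary and 57.9%, 35.2% and 71.6% in testis, so the direction at E12.5 turned when the mito-piRNA reads were the denominator.

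Within 16S rRNA, the first base gave most reads and the largest sex difference in rpm at E11.5 and E13.5, while the ratio of testis to ovary was highest in the interior of the gene. Reads from the first base were at 1003, 1196 and 2648 rpm in ovary and at 2386, 1178 and 2993 rpm in testis. The 8 sequences of 19 to 33 nt that ended at the last base of the gene, directly before mt-Tl1, summed to 124, 215 and 450 rpm in ovary and 520, 193 and 520 rpm in testis. For both ends of the gene testis was higher at E11.5 and E13.5 and slightly lower at E12.5. Reads from inside the gene were at 79.8, 33.7 and 486 rpm in ovary and 586, 84.0 and 641 rpm in testis, which is 7.33, 2.49 and 1.32 times the ovary level. The first 2 of these ratios rest on 3 and 2 sequences listed in PGC11F and PGC12F. The division of the gene into these parts was chosen after the values were seen. Exact permutation tests by swaps within days gave p = 0.5 for the first base, 0.5 for the last base and 0.25 for the interior, and cannot give a p under 0.25.

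More 5′ ends were listed in testis alone than in ovary alone, and most ends of either kind lay inside the rRNA genes. Of the 24 5′ ends with no listing in ovary, 20 (83.3%) lay inside the rRNA genes, 13 in 16S and 7 in 12S, a share close to the 45 of 58 (77.6%) among all 5′ ends of the PGC libraries. Of the 58 ends, 14 were listed in PGC11M and PGC13M and in no other PGC library, 8 in 16S and 6 in 12S, each at levels between 16.9 and 55.1 rpm, close to the lowest level listed. The reverse pattern was rarer, with 5 ends listed in ovary alone, all in 16S, each in a single library and at no more than 37.0 rpm. PGC12M listed 21 5′ ends, fewer than PGC11M with 46, PGC13M with 47 and PGC13F with 32. The ovary libraries PGC11F and PGC12F listed 17 and 15. Testis listed more 5′ ends on each day, by 29, 6 and 15 (exact permutation test by swaps within days, p = 0.25, adjusted p over 14 library measures = 0.875).

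**Figure D3:**
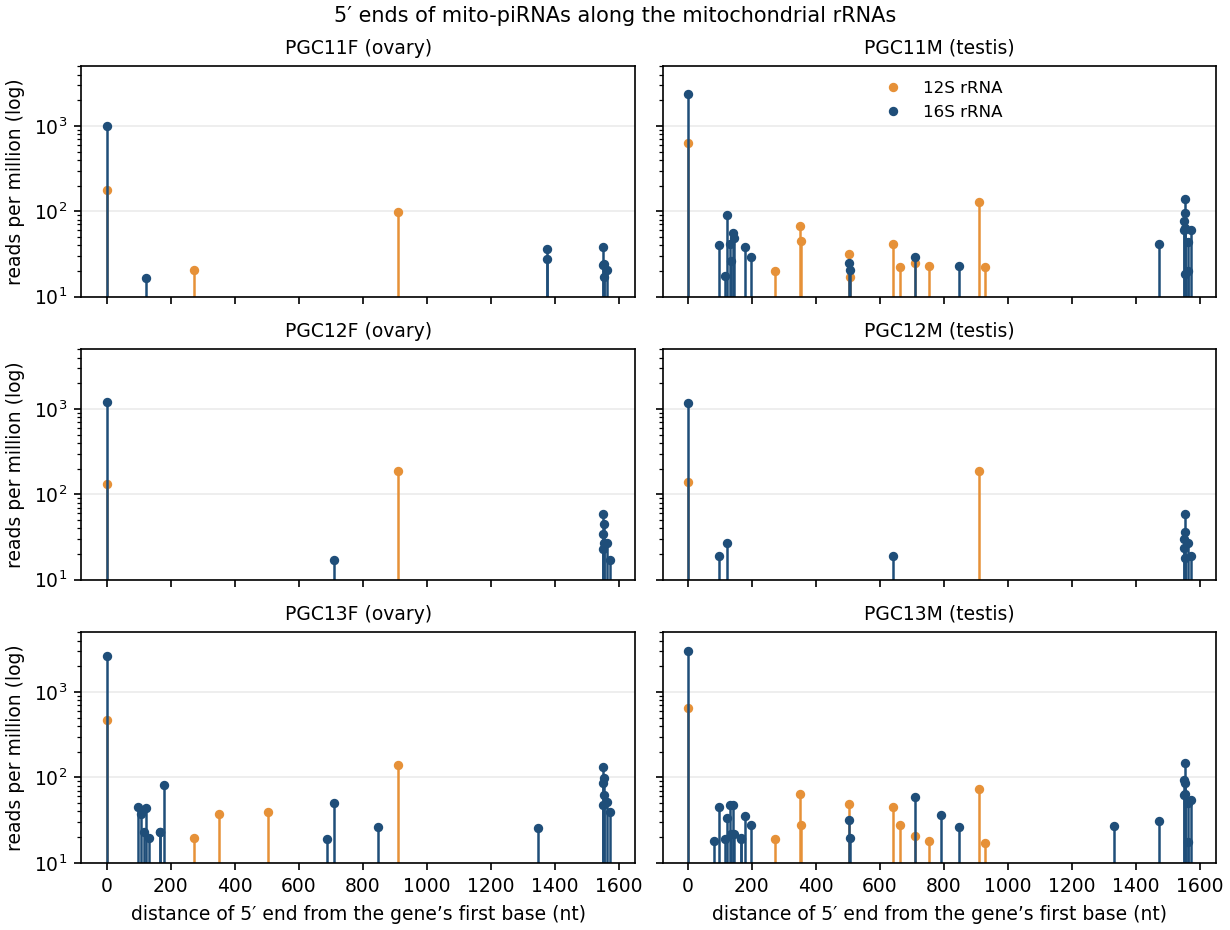
Level in reads per 1000000 (log y axis) of each 5′ end on the sense strand against its distance in nt from the first base of 12S rRNA (orange) or 16S rRNA (blue), with 1 panel for each PGC library. Interior ends were dense in PGC11M, PGC13M and PGC13F and sparse in PGC11F, PGC12F and PGC12M.

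The 12S 5′ end at 978 was the most abundant end inside an rRNA gene. It was at 97.1, 189 and 140 rpm in ovary and at 130, 186 and 72.6 rpm in testis. Most of this level came from the 16-nt sequence with T2A printed above, at 97.1, 157 and 114 rpm in ovary and 112, 160 and 72.6 rpm in testis. The sequence matched the mtDNA with 1 mismatch and matched exactly inside the 18S rRNA gene Rn18s-rs5 on nuclear chromosome 17 (40159045 to 40159060), on the strand of the gene. The 18S rRNA is the small ribosomal subunit RNA of the cytoplasm. By sequence it was thus closer to this nuclear gene than to the mtDNA, and its origin was not tested. It was the main sequence among the reads with 1 mismatch to the mtDNA, which were 4.63%, 7.69% and 5.44% of the mito-piRNA reads in ovary and 3.14%, 4.49% and 2.35% in testis. This share was lower in testis on 3 of 3 days without overlap, by a mean of 2.60 percentage points ± 0.95 (SD over 3 days). The exact permutation test gave p = 0.25 by swaps within days and p = 0.1 over all groupings, each the smallest possible, and the adjusted p over the 14 library measures was 0.875. As a level, the reads with 1 mismatch were at 217, 208 and 392 rpm in ovary and at 247, 227 and 170 rpm in testis, higher in testis on 2 of 3 days and with overlap, so the lower share at E11.5 and E12.5 went with the higher total of testis.

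The serine tRNAs gave most of the tRNA reads, and their sex difference changed direction from day to day. From mt-Ts2, which decodes AGY codons, the level was 2017, 820 and 2191 rpm in ovary and 1992, 2271 and 1300 rpm in testis. It was about equal at E11.5, 2.77 times as high in testis at E12.5 and 1.69 times as high in ovary at E13.5. From mt-Ts1 (tRNA-SerTGA, minus strand, chrM:6870-6938), which decodes UCN codons, the level was 488, 40.3 and 545 rpm in ovary and 922, 465 and 375 rpm in testis. PGC12F was thus the low library for both tRNAs. The edgeR log2 differences were 0.22 ± 0.79 (SE, adjusted p = 0.873) for mt-Ts2 and 1.24 ± 1.26 (SE, adjusted p = 0.873) for mt-Ts1. The value for mt-Ts1 was 0.19 without PGC12F or PGC12M and 2.22 without PGC13F or PGC13M. DESeq2, with its own size factors, placed mt-Ts2 lower in testis, with a log2 difference of -0.71 (adjusted p = 0.015), and the sign also turned with other scalings.

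The 18-nt form of mt-Ts2 had the lowest p of the 60 sequences and is not printed here. It was at 132, 28.2 and 19.8 rpm in ovary and at 314, 230 and 245 rpm in testis, without overlap (edgeR log2 difference 2.66 ± 0.97 SE, unadjusted p = 0.048, adjusted p = 0.911). In PGC13F the 17-nt form, which no other PGC library listed, was at 519 rpm. The 17-nt and 18-nt forms together took 6.53%, 3.43% and 24.6% of the mt-Ts2 reads in ovary and 15.8%, 10.1% and 18.8% in testis, so the groups overlapped once both lengths were counted. A second form, of 26 nt, had the lowest p of the sequences with a higher fitted level in ovary. It was at 282, 97.9 and 299 rpm in ovary and 131, 164 and 103 rpm in testis, lower in testis on 2 of 3 days (edgeR adjusted p = 0.911).

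The reverse strand of the D-loop gave a single 5′ end, at 16188 on the minus strand, and had its highest level in PGC11F. It was at 634, 65.0 and 45.5 rpm in ovary and at 214, 213 and 140 rpm in testis. Ovary was higher at E11.5 and testis at E12.5 and E13.5, and the 3 testis levels lay inside the range of ovary (edgeR log2 difference 0.69 ± 1.70 SE, adjusted p = 0.873, and -0.39 without the day block). Without PGC11F, PGC11M or both the log2 difference was 1.67. Its adjusted p among the 5′ ends was then 0.078, 0.046 and 0.057, and that of the same reads among the features was 0.430, 0.150 and 0.322, so the pass without PGC11M alone depended on the level tested.

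Among the features of low level, mt-Tl1 and the antisense strand of mt-Ta were listed in every testis library and in no ovary library. The mt-Tl1 gene encodes the tRNA for UUR leucine codons and lies directly after 16S rRNA. Its 5 sequences, printed above, were at 0 rpm in the 3 ovary libraries and at 36.6, 177 and 63.2 rpm in testis over the 3 days. The 20-nt sequence was listed in each testis library, at 17.3, 22.0 and 18.8 rpm, and was the only one of the 157 sequences listed in 3 of 3 testis and 0 of 3 ovary libraries. It matched the mtDNA exactly and also had 4 nuclear matches with up to 1 mismatch, 1 of them exact, and its origin was not tested. No sequence was listed in 3 of 3 ovary and 0 of 3 testis libraries. The 4 longer forms were listed in 1 or 2 testis libraries, all of them in PGC12M, at 19.3 to 49.6 rpm where listed. Each of the 4 had 1 or 2 nuclear matches with up to 1 mismatch.

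The sequences opposite mt-Ta, which begin at the base after mt-Tw, were at 0 rpm in ovary and at 43.2, 19.1 and 97.4 rpm in testis. PGC13M listed all 5 of them, PGC11M listed 2 and PGC12M listed only the 26-nt sequence printed above. Each of these sequences was close to the limit of listing, so ovary levels just under that limit could not have been seen.

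With day as a block neither feature passed, with an unadjusted p of 0.071 for mt-Tl1 and 0.124 for the antisense of mt-Ta and an adjusted p of 0.682 for each. Without the block edgeR called both, 2 of 11 features (18.2%), at adjusted p = 0.0065 for mt-Tl1 and 0.018 for the antisense of mt-Ta, and 2 of 29 5′ ends (6.9%), which were the same starts. Since both features entered the test through the group where they were listed, against counts of 0, these calls do not support a difference beyond the listing itself. With unlisted sequences set to the lowest count of their library, the log2 differences were 2.13 ± 1.00 (SE, adjusted p = 0.483) and 1.37 ± 0.79 (SE, adjusted p = 0.542). Over 11 alternatives the adjusted p ran from 4.7e-15 to 1 for mt-Tl1 and from 0.00028 to 1 for the antisense of mt-Ta. Neither feature passed the filter at a listing level of 25 rpm or with a testis library or a day left out, so those alternatives gave no value for them.

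The other features of low level did not divide the sexes. The antisense strand of mt-Tp (tRNA-Pro) was at 17.7, 17.5 and 19.96 rpm in ovary and at 17.3, 36.9 and 0 rpm in testis. For mt-Tq (tRNA-Gln) the levels were 23.7, 0 and 29.8 rpm in ovary and 23.4, 72.4 and 17.7 rpm in testis. For mt-Te (tRNA-Glu) they were 0, 0 and 28.3 rpm in ovary and 19.5, 22.0 and 0 rpm in testis. The start of mt-Nd3, a subunit of respiratory complex I, gave 0, 0 and 49.4 rpm in ovary and 28.6, 0 and 41.8 rpm in testis. Its 3 sequences matched the mtDNA with 1 mismatch and matched exactly inside Gm28438, an annotated pseudogene on nuclear chromosome 1. By sequence they were thus closer to this nuclear place than to the mtDNA, and their origin was not tested. The antisense strand of mt-Nd3 was listed in PGC11M alone at 17.3 rpm, and mt-Atp8, a subunit of ATP synthase, in PGC13M alone at 17.5 rpm.

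**Figure D4:**
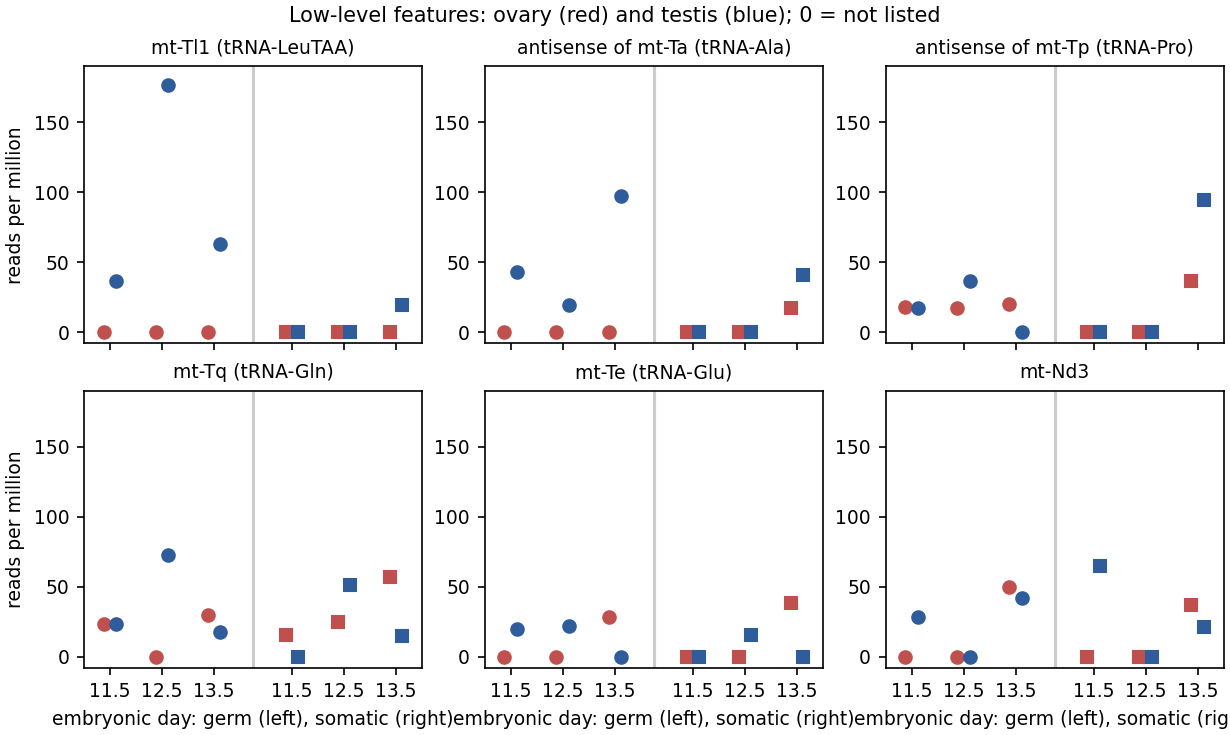
Level in reads per 1000000 (y axis) of 6 features of low level in each library by embryonic day (x axis), PGCs as circles on the left and somatic cells as squares on the right of each panel, ovary in red and testis in blue. Only mt-Tl1 and the antisense of mt-Ta had all testis PGC libraries above 0 and all ovary PGC libraries at 0.

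At the level of sequences, 64 of the 157 were listed in both sexes, 53 in testis alone and 40 in ovary alone. Of the 40, 32 were listed in PGC13F alone among the PGC libraries, and of the 53, 30 were listed in 2 testis libraries. The 22 sequences listed in all 6 libraries held 48.3% of the reads. PGC11M and PGC13M shared 82 sequences, of 96 and 97 listed, and either shared 50 and 48 with PGC12M, which listed 59. Testis listed more sequences than ovary on each day (96 against 55, 59 against 41 and 97 against 71). The mean difference was 28.3 ± 11.7 sequences (SD over 3 days), with an exact permutation p of 0.25 and an adjusted p of 0.875 over the 14 library measures.

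None of the 5 sequences with the most reads was called between the sexes. The 23-nt form of 16S rRNA was at 245, 279 and 0 rpm in ovary and at 560, 265 and 706 rpm in testis. The 22-nt form of mt-Ts2 was at 395, 221 and 0 rpm in ovary and 407, 597 and 271 rpm in testis. The 18-nt form from the first base of mt-Ts1 was at 169, 22.3 and 207 rpm in ovary and 581, 279 and 173 rpm in testis. The 16S forms of 34 and 29 nt, which PGC13F listed too, were at 97.6, 108 and 369 rpm and at 119, 146 and 280 rpm in ovary, and at 300, 77.4 and 437 rpm and at 290, 166 and 366 rpm in testis. All 5 had an edgeR adjusted p of 0.911, and the 23-nt and 22-nt forms rest on PGC13F, where the family was present at other lengths. With terminal A, AG, C and CT removed from every sequence, an alternative chosen after seeing the data, 98 forms remained and 0 of 46 tested were called.

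Other measures of the make-up of the mito-piRNAs overlapped between the sexes. Reads beginning with A were 72.6%, 88.5% and 81.5% in ovary and 75.4%, 80.0% and 81.8% in testis. Reads beginning at the first base of a gene were 79.2%, 80.8% and 82.8% in ovary and 76.6%, 85.5% and 75.6% in testis. Mean length was 23.04, 24.01 and 23.36 nt in ovary and 22.88, 23.07 and 23.97 nt in testis. Reads from tRNAs were 54.4%, 32.4% and 39.1% in ovary and 38.8%, 60.6% and 25.7% in testis. Of the 14 library measures, 4 had the same direction on all 3 days, and for each of the 14 the adjusted p was 0.875 or 1 (exact permutation tests, which cannot pass the threshold with 3 pairs and so do not show that the sexes were alike).

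The SC libraries of the same gonads were set beside the PGC libraries to see whether these differences were shared. In SCs the 16S feature was at 1209, 689 and 2270 rpm in ovary and 3204, 1643 and 3965 rpm in testis, and the log2 ratio of testis to ovary was 1.41, 1.25 and 0.81 over the days, against 1.53, 0.01 and 0.21 in PGCs. Both cell types thus had more 16S mito-piRNA in testis on 3 of 3 days, and the difference between their sex differences was -0.62 on the log2 scale (± 0.70 SE, edgeR adjusted p = 1). The mt-Tl1 family was listed in 1 of 6 SC libraries, SC13M, at 19.2 rpm, and the antisense of mt-Ta in SC13F at 17.4 rpm and in SC13M at 41.0 rpm. The 20-nt mt-Tl1 sequence was listed in no SC library. A test of whether the sex difference differed between PGCs and SCs called 0 of 11 features (0%) with edgeR. The term for mt-Tl1, which was at 0 in every ovary library of both cell types, could not be estimated (SE 9818). At an unadjusted p of 0.05 the test gave 1 feature, the antisense of mt-Ta, which had an adjusted p of 0.480, and DESeq2 was not run for this test. With unlisted sequences set to the lowest count the lowest adjusted p was 0.269, for mt-Tl1.

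**Figure D5:**
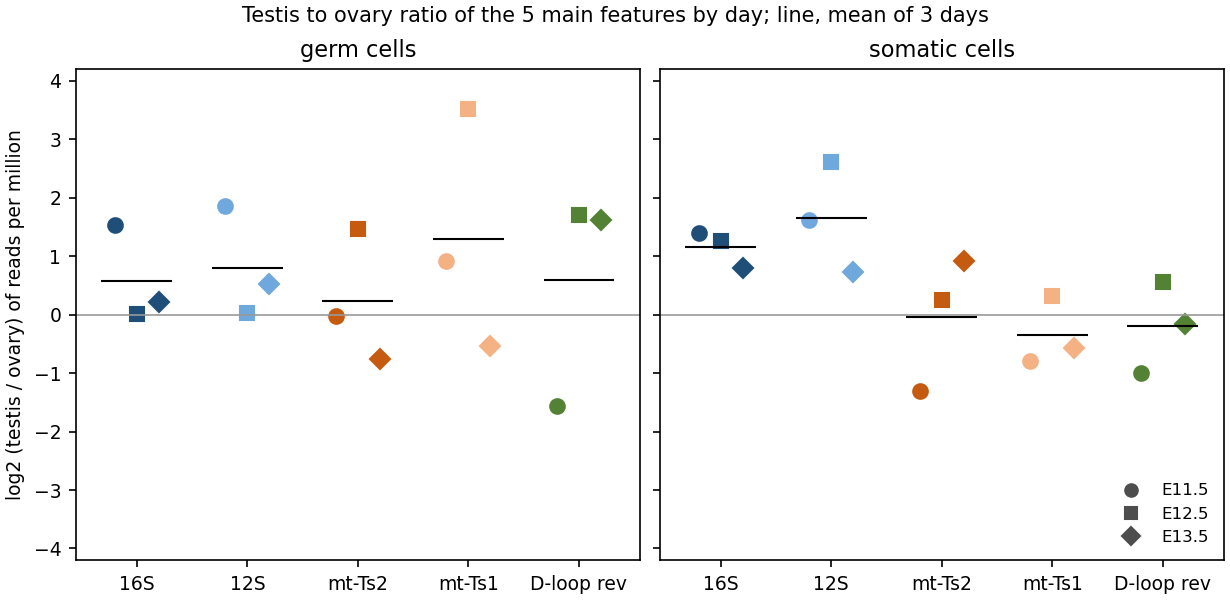
Log2 ratio of testis to ovary in reads per 1000000 (y axis) for the 5 most abundant features (x axis) at each day, in PGCs (left) and somatic cells (right), with the mean of the 3 days as a line. The rRNA ratios were above 0 on all days in both cell types, and those of the serine tRNAs and the D-loop lay on both sides of 0.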

How the data were processed

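For each sample the authors deposited raw counts, 1 whole number per distinct mito-piRNA sequence. They trimmed reads with Trim Galore, collapsed them, kept sequences of at least 10 CPM and aligned them with Bowtie to mtDNA and nuclear DNA and to a piRNA database, with up to 1 mismatch. These counts are part of a library, so levels were computed per 1000000 reads of the library total that the study tabulates, which counts sequences over that minimum. Sequences were placed on GRCm39 (chrM) with GENCODE genes, and the D-loop was taken as 15423 to 16299. Nuclear matches with up to 1 mismatch were found by a full scan. Members and lists were chosen with earlier results of these data known. Testis and ovary were compared with edgeR 4.0.16 (quasi-likelihood, day as block, library totals as library sizes, features listed in at least 3 libraries, Benjamini-Hochberg adjustment, threshold 0.05), which was tested on simulated data at a dispersion of 0.1, far below the 2.61 of these sequences, so that test does not describe the power here, and single measures with 2-sided exact permutation tests. Each sex and day is 1 pooled library. With day as a block or pair, p-values therefore measure how the testis to ovary difference varied over the days. Variation between libraries is part of this spread. The genes and sequences named are all features with PGC reads, the most abundant 5′ ends and sequences, those of lowest p in each direction and those listed in all libraries of 1 sex and none of the other. The mt-Tl1 and mt-Ta forms beyond this rule, and the groupings of 5′ ends, were chosen after their values were seen. DESeq2 1.42.0, TMM, other denominators, filters, listing levels and left-out libraries were alternatives. Sequences with a match on certain withheld regions are not printed here. Python 3.11.15 and R 4.3.3 were used.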

Additional observations from a re-analysis of the deposited data

Results flagged for a closer look

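The share of mito-piRNA reads that end in T was higher in testis than in ovary on 3 of 3 days in PGCs, with a mean difference (testis minus ovary) of 4.71 percentage points, and lower in testis on 3 of 3 days in SCs, with a mean difference of -3.30 percentage points. The difference between the cell types was not tested. In PGCs the daily differences were 0.511, 0.528 and 13.1 percentage points. With exact matches only and at a listing level of 25 rpm the direction was not the same on all 3 days (exact permutation p = 1 and 0.5 against 0.25). The last daily difference involves PGC13F, whose 3′ ends stood apart, and the mean rests on that library.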

How the results depend on the processing

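Against 0 calls with the day block, DESeq2 called 3 features and 5 5′ ends, the test without the day block called 2 features and 2 5′ ends, and the deposited counts as library sizes called 1 5′ end, that of mt-Tl1. The mt-Tl1 and antisense mt-Ta calls compare testis with counts of 0 and could take no other direction. With a library left out, the number of 5′ ends called ranged from 0 to 1, and the call without PGC11M was the D-loop end. The causes of these changes were not tested. No sequence was called under any alternative, and no feature or sequence with a library left out. Scaling to the deposited counts moved the median log2 difference of the 11 features from 1.22 to 0.69, and it was 0.19 without PGC12F, 0.36 without PGC11F, 0.36 with DESeq2, 0.56 without the day block, 0.58 with unlisted sequences set to the lowest count, 0.67 with all 12 libraries and 0.86 with TMM.

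Directions also turned for values that passed neither edgeR with all 6 libraries and the day block nor an exact permutation test. The log2 difference of the total was -0.038 relative to mitochondrial small RNA reads, most of which are mito-piRNAs, and 0.60 relative to nuclear piRNA reads. With DESeq2 the log2 difference was -0.36 for the D-loop, -0.088 for 12S, -0.32 for 16S and -0.71 for mt-Ts2, of which mt-Ts2 was among the 3 features called. It was -0.39 for the D-loop without the day block, and for mt-Ts2 -0.33 with the deposited counts as library sizes and -0.20 with TMM. With a library or a day left out it ranged from -0.39 to 0.73 for mt-Ts2. The 5′ ends at 2645 and 2647 were lower in testis with DESeq2, against edgeR log2 differences of 0.65 and 0.45. With 1 day left out, the testis minus ovary difference in percentage points ranged from -14.5 to 7.37 for tRNA reads, -9.0 to 18.9 for rRNA reads, -4.75 to 1.56 for D-loop reads, -4.08 to 1.55 for reads beginning with A, -4.89 to 1.06 for reads at the first base of a gene, -15.8 to 2.05 for reads ending in A and -3.98 to 5.29 for reads without a nuclear match. The last of these, 0.022 in all, was -0.27 with a listing level of 25 rpm and -0.76 with exact matches only. The difference in mean length ranged from -0.55 to 0.23 nt.

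Each sex and day is 1 library, so effects that differ between days add to the spread, and levels under the lowest one listed were not seen.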
